A study of Fragaria vesca with 3 samples.

Results

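The sucrose transporter genes FvH4_5g33660 and FvH4_2g40120 and the sucrose-phosphate synthase gene FvH4_6g48160 of woodland strawberry (Fragaria vesca) were examined for peaks of the MADS-domain transcription factor FvSEP3. These 3 genes, out of 18238 with any peak, were taken by their gene identifiers. They had been chosen by their peak positions, a promoter peak in each replicate, so that property and the peak values are described here and carry no test. DNA affinity purification sequencing (DAP-seq) recovers fragments of purified genomic DNA that bind a transcription factor made outside the cell, so chromatin is not part of the assay. The groups were 2 FvSEP3 IP replicates, called biological replicates in the series description, and 1 input library. All were made from genomic DNA of wild-type fruit at 30 days post anthesis. The lists held 19298 peaks in IP replicate 1, 21823 in IP replicate 2 and 13283 in the authors' merged list, and the input was not analysed here. The files hold peaks without read counts, and depth is therefore unknown.

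In strawberry, sucrose is the main sugar carried in the phloem to growing fruit. Sucrose transporters of the SUC family are membrane proteins that move it across the plasma membrane or the vacuolar membrane together with protons. Arabidopsis SUC4 is a carrier of the vacuolar membrane. Sucrose-phosphate synthase joins UDP-glucose and a fructose phosphate to sucrose phosphate, which a sucrose-phosphatase then turns into sucrose. SEPALLATA proteins are MADS-domain factors that act in floral organ identity and in the ripening of fleshy fruits.

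Each of the 3 genes had exactly 1 peak in every list, and all of these peaks lay upstream of or at the gene start. The peak at FvH4_5g33660 (SUC4) covered the start itself. The peaks of FvH4_2g40120, a sucrose transport protein-like gene, and of FvH4_6g48160, described as probable sucrose-phosphate synthase 3, lay between 1 and 2 kb upstream. A promoter peak, meaning a deposited distance that puts it at the start or at most 2000 bp upstream, was present in both replicates for 3 of 3 genes, against 13.7% of all genes with any peak. The rule chose the genes for this, so nothing is read from the count. Of the 2495 genes with such peaks in both replicates, 44.6% had a single peak in each list. All 6 replicate peaks overlapped a peak of the other replicate. The share was 70.5% of all replicate 1 peaks and 62.0% of all replicate 2 peaks, or 69.0% and 61.2% of their promoter peaks. Of the 2495 genes with promoter peaks in both replicates, 2436 had overlapping ones. The overlap therefore came largely with the choice of the genes, and nothing is read from it. Overlap at the promoter was present for 13.4% of all genes with a peak.

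**Figure D1:**
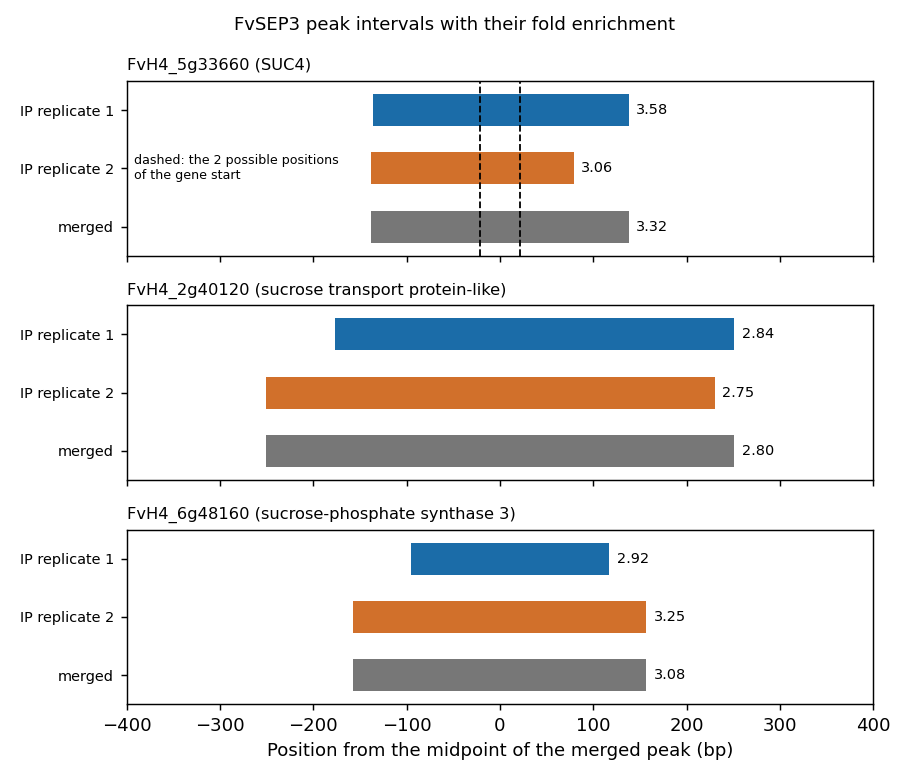
Peak intervals of the 3 genes in both IP replicates and the merged list, drawn to scale against bp from the midpoint of the merged peak, with the fold enrichment printed beside each bar. The dashed lines show the 2 possible positions of the SUC4 gene start, both inside every interval. Replicate intervals of each gene lie over one another.

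SUC4 had the highest mean fold enrichment of the 3 genes. Fold enrichment is the authors' deposited ratio for each peak, used here only to describe and rank peaks within a list. On chromosome 5, the IP replicate 1 peak ran from 24368321 to 24368595 at 3.58-fold and the IP replicate 2 peak from 24368319 to 24368536 at 3.06-fold. The mean was 3.32 ± 0.364 (SD, n = 2). Positions are as deposited, on a build not given in the sources used here. Both intervals shared 216 bp, which was 78.5% of the replicate 1 interval and 99.1% of the replicate 2 interval. Both lists called the position a promoter within 1 kb, at −28 bp in replicate 1, −37 bp in replicate 2 and −21 bp in the merged list, counted from the start of transcript t3.

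The merged distance was measured from the interval's midpoint. This followed from the 1769 transcripts with at least 2 merged peaks, of which 1769 gave 1 strand and 1 start that explained all their distances to within 1 bp. For SUC4, with a single merged peak, the strand could not be read from the distances. Its start lay at 24368478 if the gene is read towards higher coordinates and at 24368436 if it is read towards lower ones, and both positions fell inside the replicate 1, replicate 2 and merged intervals. Of all 2664 merged promoter peaks, 22.5% covered the gene start in this way. Replicate distances were measured from another point, which lay inside the interval for each of the 4302 replicate 1 peaks and 4426 replicate 2 peaks that could be checked. For SUC4 these points lay 9 bp apart in the replicates, less than the median of 35 bp over 13348 overlapping pairs assigned to the same transcript.

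The SUC4 peak stood alone in its surroundings. No other replicate 1 peak lay within 10 kb, as for 14.6% of all replicate 1 peaks, and the nearest was 23390 bp away. In replicate 2, 1 other peak was listed in this window, 9414 bp towards higher coordinates in exon 3 of 3 of FvH4_5g33661, a gene with no description, at 3.41-fold. No replicate 1 peak overlapped it.

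FvH4_2g40120 had the weakest and the most even pair of values. On chromosome 2, its replicate 1 peak ran from 28664036 to 28664464 at 2.84-fold and its replicate 2 peak from 28663962 to 28664443 at 2.75-fold. The mean was 2.80 ± 0.0639 (SD, n = 2). Over all 13665 overlapping pairs the median difference between replicates was 0.344, and 14.2% of pairs differed by less than FvH4_2g40120 did. Both intervals were long, at 429 bp in replicate 1 and 482 bp in replicate 2, against list medians of 303 and 306 bp. They shared 408 bp, or 95.1% and 84.6% of their lengths in replicates 1 and 2.

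Deposited distances put the FvH4_2g40120 peak at −1326 bp in replicate 1, −1284 bp in replicate 2 and −1167 bp in the merged list. The points behind the replicate distances lay 42 bp apart. The nearer edge of the merged interval was 916 bp from the start. Replicate 1 had no other peak within 10 kb. Replicate 2 had 1, which began 2199 bp beyond the member's own peak, from 28666643 to 28666857, in intron 1 of 7 of FvH4_2g40130 (a lysophospholipid acyltransferase, LPEAT1) at 2.87-fold. That neighbouring peak was found in replicate 2 alone. Over all replicate 2 peaks, 62.0% overlapped a replicate 1 peak. The FvH4_2g40120 peak was found in both replicates, but the gene was chosen for a promoter peak in each.

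FvH4_6g48160 differed between replicates in the opposite sense to SUC4. On chromosome 6, its replicate 1 peak ran from 36322277 to 36322489 at 2.92-fold and its replicate 2 peak from 36322215 to 36322529 at 3.25-fold. The mean was 3.08 ± 0.232 (SD, n = 2). The replicate 1 interval, 213 bp long, lay wholly inside that of replicate 2, which was 315 bp long. Distances were −1874 bp in replicate 1, −1876 bp in replicate 2 and −1923 bp in the merged list. A gap of 2 bp separated the points behind the replicate distances, and 3.18% of overlapping pairs had a smaller one. The nearer edge of the merged interval was 1766 bp from the start.

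FvH4_6g48160 had 3 other peaks within 10 kb in replicate 1, where SUC4 and FvH4_2g40120 had 0. In replicate 2 it had 1, as many as SUC4 and FvH4_2g40120 each had, and the list median was 2 in each replicate. All of the peaks around FvH4_6g48160 lay towards lower coordinates. A peak in exon 1 of 2 of FvH4_6g48150, a pentatricopeptide repeat gene, was found in both replicates, at 2.91 in replicate 1 and 3.30 in replicate 2. Replicate 1 alone listed a peak in the 3' UTR of FvH4_6g48151, an F-box/FBD/LRR-repeat gene, at 3.01-fold and 2098 bp from the FvH4_6g48160 peak. It also listed one in intron 1 of 2 of FvH4_6g48140 (casparian strip membrane protein 1) at 3.34-fold.

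**Figure D2:**
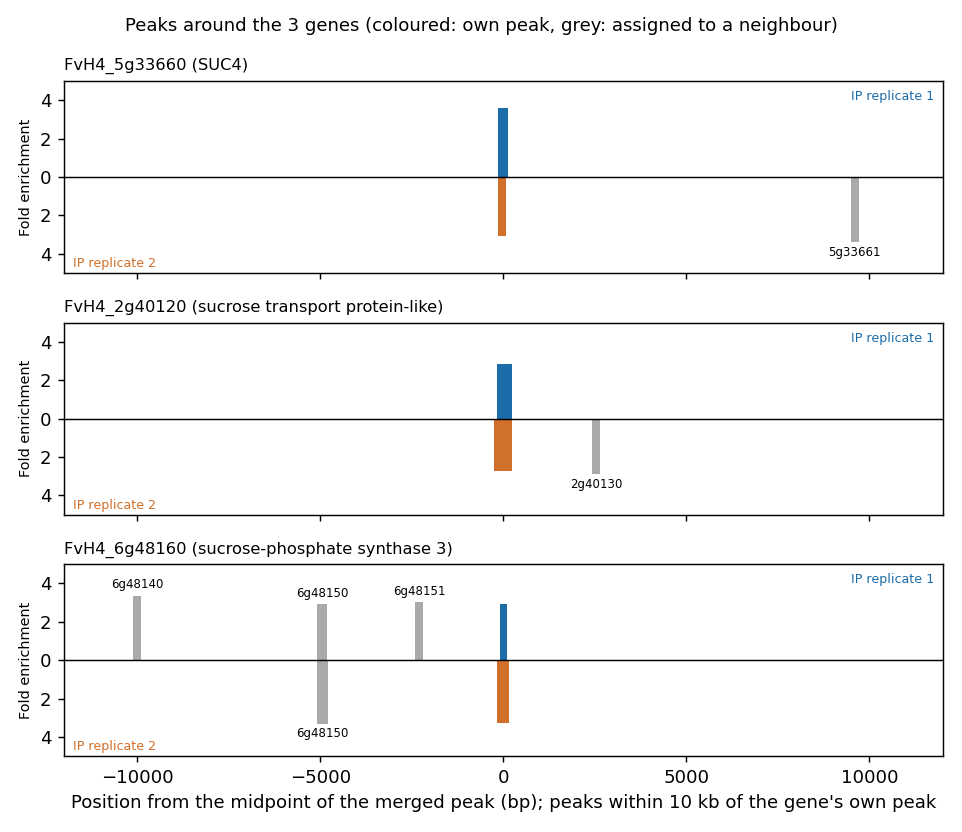
Fold enrichment of each gene's own peak (coloured) and of peaks assigned to neighbouring genes (grey) within 10 kb, against bp from the midpoint of the merged peak. Bars point up for IP replicate 1 and down for IP replicate 2. FvH4_6g48160 has neighbouring peaks towards lower coordinates in both replicates, whereas SUC4 and FvH4_2g40120 have 1 each, in replicate 2.

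Set against all peaks, the 3 genes covered a wide range of the lists. Each percentile is the share of the peaks of a list with a lower fold enrichment. SUC4 stood at the 81.0 percentile in replicate 1 and at 53.7 in replicate 2. FvH4_6g48160 stood at 40.1 in replicate 1 and at 65.9 in replicate 2. FvH4_2g40120 stood at 34.7 in replicate 1 and at 31.2 in replicate 2, below the median both times. Among promoter peaks alone the percentiles were within 2 points of these. Against the 10692 genes with an overlapping pair of peaks, whose strongest pair had a median mean fold of 3.20, SUC4 was above 60.0% of genes, FvH4_6g48160 above 40.8% and FvH4_2g40120 above 19.6%.

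**Figure D3:**
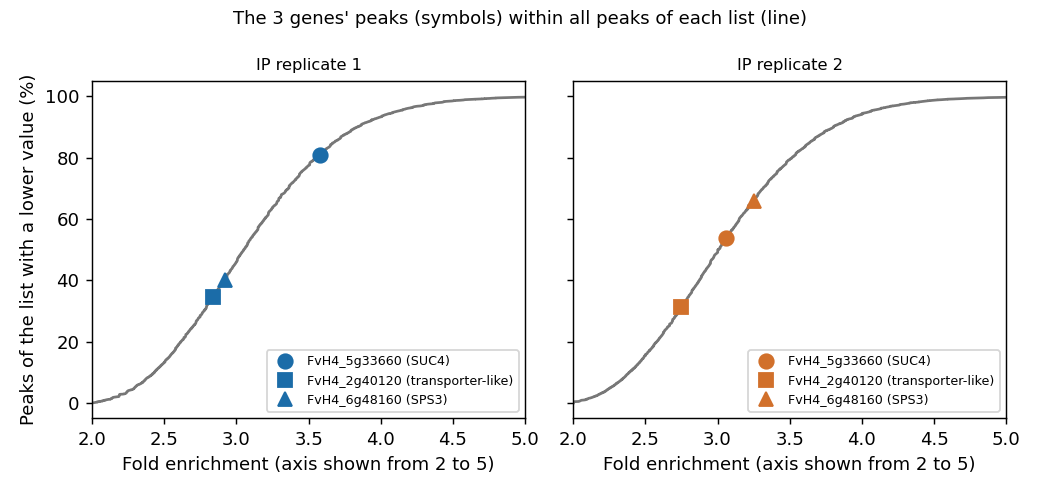
Share of peaks with a lower value (y axis, %) against fold enrichment (x axis, shown from 2 to 5) for all peaks of each IP replicate (line) and the 3 genes' peaks (symbols). SUC4 is the highest of the 3 in replicate 1 at 3.58 and FvH4_6g48160 in replicate 2 at 3.25, and FvH4_2g40120 is the lowest in both.

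The order of the 3 genes was not the same in both replicates. SUC4 was the highest in replicate 1, and FvH4_6g48160 was the highest in replicate 2. Their ranges overlapped, so these genes did not differ beyond the spread between replicates. FvH4_2g40120 was the lowest in both, with a highest value of 2.84 just under the lowest value of FvH4_6g48160, 2.92. By the peak caller's −log10 p the order within each replicate was the same as by fold enrichment. FvH4_6g48160 had 12.8 in replicate 1 and 17.6 in replicate 2, SUC4 had 14.3 in replicate 1 and 11.5 in replicate 2, and FvH4_2g40120 had 10.7 in each. The list medians were 11.9 in replicate 1 and 12.3 in replicate 2, so that FvH4_2g40120 was below the median in both replicates and FvH4_6g48160 above it in both. On this measure SUC4 was above the median in replicate 1 and below it in replicate 2.

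No gene of the 3 passed every stricter threshold. With peaks at or above the median fold enrichment of their list, 1 of 3 remained, SUC4, against 42.0% of the 2495 genes counted above. With a −log10 q of at least 10, 1 of 3 remained, FvH4_6g48160 (10.4 in replicate 1 and 14.8 in replicate 2), against 40.5% of those genes. SUC4 missed this limit in replicate 2, with 11.7 in replicate 1 and 9.40 in replicate 2. With a promoter of 1 kb, 1 of 3 remained, again SUC4, against 63.1%. FvH4_2g40120 was kept in none of these settings, like 20.8% of those genes, whereas 24.0% were kept in every one. All 3 genes were kept when the peaks had to overlap by at least 50% of both lengths (89.6% of those genes) and in the merged list (90.7%).

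By description, 2 other sucrose transporter genes had any peak, and neither had a peak at the same place in both replicates. FvH4_5g04340 (SUC2-like) had a promoter peak in each list, but at different places. Its replicate 1 peak lay at −209 bp with 2.24-fold and its replicate 2 peak at −1412 bp with 2.38-fold. Such non-overlapping promoter peaks were found in 59 of the 2495 genes. FvH4_4g31620 (SUC3) had a single peak, in intron 7 of 13 in replicate 2, at 2.90-fold. Unlike these, SUC4 and FvH4_2g40120 had overlapping promoter peaks. They were chosen for a promoter peak in each replicate, which the SUC2-like gene also had, and the contrast was not tested.

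The description of FvH4_6g48160 was shared with other genes. Its protein record, probable sucrose-phosphate synthase 3, was given to 5 genes with a peak, 4 of them on chromosome 6 and 1 on chromosome 4, whereas 12630 of 13946 records were given to a single gene and 0.739% to 5 or more. The records of SUC4 and FvH4_2g40120 were each given to 1 gene. In the supplied reference table, of another assembly, the gene of this record lies on a different chromosome from FvH4_6g48160. Whether FvH4_6g48160 holds a complete sucrose-phosphate synthase was not tested. The placement of reads from similar copies was not tested.

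Of the 5 genes with this record, 3 had an overlapping peak in both replicates, all of them about 2 kb upstream on chromosome 6. FvH4_6g48160 lay just inside the 2 kb promoter limit at −1874 and −1876 bp in replicates 1 and 2. Just outside it, FvH4_6g47971 had a peak at −2215 bp with 3.53-fold in replicate 1 and −2267 bp with 3.22-fold in replicate 2. FvH4_6g48900 had one at −2205 bp with 2.73-fold in replicate 1 and −2104 bp with 3.28-fold in replicate 2, which lay in exon 2 of 2 of FvH4_6g48910. The 3 merged distances fell within 338 bp of one another. Over all gene pairs with the same record, 24.7% of 2722 lay within this span. Among pairs with peaks upstream of the start the share was 24.9% of 683. These shares are for pairs rather than for 3 genes, and the likeness was not tested. The other 2 of the 5 genes had peaks in replicate 2 alone, FvH4_4g13520 at −101 bp (2.63-fold) and FvH4_6g48814 at −500 bp (2.43-fold) and 2214 bp (2.99-fold).

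Sucrose-phosphate synthases 1 and 4 carried their overlapping peaks away from the promoter. FvH4_6g48160 was the 1 gene with a promoter peak in both replicates among 8 described as sucrose-phosphate synthases, which is the property it was chosen for. Overlapping peaks at some position were found in 6 of the 8, against 58.6% of all genes with a peak. FvH4_6g48160, chosen for a promoter peak in each replicate, was among the 6. FvH4_1g02490 and FvH4_2g28820, both described as sucrose-phosphate synthase 1, had theirs in exon 3 of 13. FvH4_2g00340 (sucrose-phosphate synthase 4) had its overlapping peak at −4617 bp in replicate 1 and −4543 bp in replicate 2. No overlapping peak was listed for the 2 sucrose-phosphatase genes, FvH4_6g20950 and FvH4_7g05160, against the same share of 58.6%, and neither count was tested.

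Among 73 sucrose and sugar genes with any peak, found by words in their descriptions, 6 had a promoter peak in both replicates (8.22%). The exact 95% interval was 3.08 to 17, counting error only, against 13.7% of all genes with a peak. The 3 genes described here were among these 6 by their choice. Without them the count was 3 of 70 (4.29%, interval 0.893 to 12). Leaving them out lowers the share and its interval by construction, whereas the 13.7% keeps every such gene. The difference was not tested. The 3 remaining genes were the SUC2-like gene and 2 of 32 other sugar carriers, FvH4_1g10120 (monosaccharide-sensing protein 2) and FvH4_4g15172 (sugar transport protein 13-like). Sucrose-cleaving enzymes had 0 of 14 and SWEET carriers 0 of 13. Overlapping peaks at any position were found in 39 of the 73 genes (53.4%), or 36 of the 70 without the 3 genes described here (51.4%), against 58.6% of all genes with a peak. The median mean fold of these 39 was 3.19, above FvH4_6g48160 and FvH4_2g40120 and below SUC4.

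**Figure D4:**
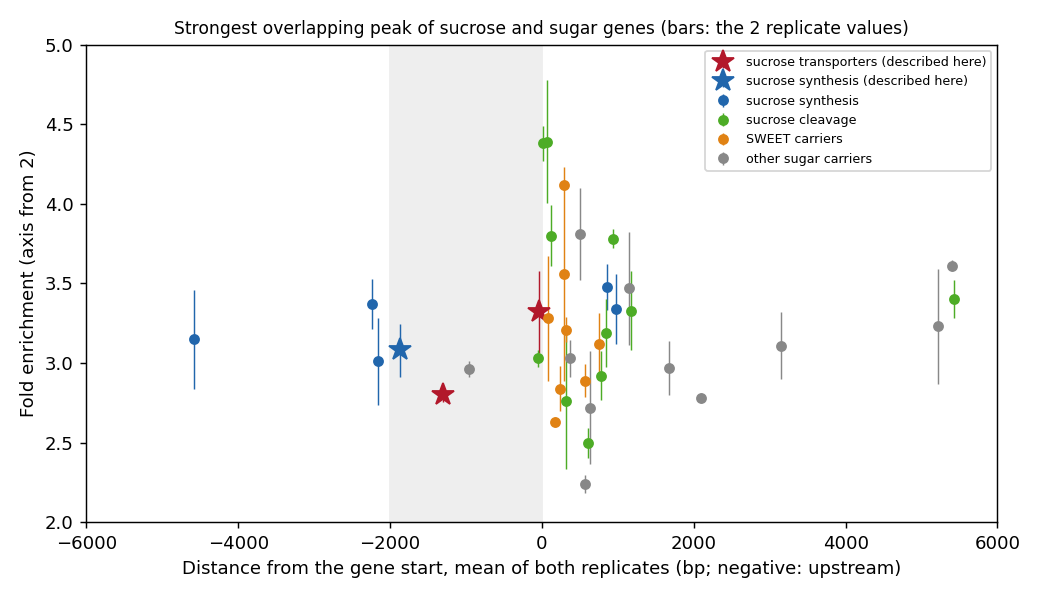
Fold enrichment of the strongest overlapping peak (y axis, from 2) against its distance from the gene start (x axis, bp, mean of both replicates) for sucrose and sugar genes, coloured by role. Stars mark the 3 genes described here, vertical lines join the 2 replicate values, the grey band is the 2 kb promoter, and FvH4_5g25950 lies beyond the axis. SUC4 sits at the start, FvH4_2g40120 and FvH4_6g48160 further upstream, and most other peaks lie downstream of the start.

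The pathway genes with the most similar pairs of fold enrichments were named for each gene by the Euclidean distance over the 2 replicates, among 38 others. For SUC4 these were FvH4_6g19271 (a beta-fructofuranosidase, distance 0.0193) and FvH4_1g02490 (0.0561). For FvH4_2g40120 they were FvH4_2g38270 (sugar transport protein 13-like, 0.112) and FvH4_5g05160 (SWEET5, 0.160). For FvH4_6g48160 they were FvH4_3g00760 (inositol transporter 4-like, 0.0793) and FvH4_2g06240 (sugar transport protein 10-like, 0.102).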

How the data were processed

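Per the submitters' processing notes, BWA and MACS2 were used. Their settings, any control and the build: not given in the sources used here. For either IP replicate and for both merged, the authors deposited peak lists with the fold enrichment (a ratio), −log10 p-value and −log10 q-value of each peak, the nearest gene and the distance to its start. The lowest fold in either list was 2.00.

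Overlap meant at least 1 shared bp. The code was tested on simulated data and against bedtools 2.31.1, with 13597 replicate 1 peaks from either. Python 3.11.15, pandas 2.3.3 and scipy 1.17.1 were used. No significance test was run, since the genes were chosen by these values, and a mean ± SD describes the 2 deposited values, which measure only the spread between these libraries. The members, gene lists and alternatives were chosen with earlier results of these data known. Pathway genes were matched by description words in 5 lists. An invertase inhibitor and UDP-sugar transporters were then taken out, and N3 genes moved to SWEET.

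Named genes were the members, every sucrose transporter, synthesis or cleavage gene with an overlapping peak, up to 3 others per list by mean rank, the 2 pathway genes nearest each member in fold enrichment, and neighbours with a peak within 10 kb. FvH4_5g04340, FvH4_4g31620, FvH4_4g13520, FvH4_6g48814, FvH4_6g20950, FvH4_7g05160, FvH4_1g10120 and FvH4_4g15172 were added after their values were seen. The supplied reference table holds the protein records of 2 of the 3 members, names no product, and was not used for peak positions. Only the chromosome of the gene with the sucrose-phosphate synthase 3 record was read from it. Alternatives were other promoter windows, a median fold or −log10 q minimum, stricter overlap, the merged list, each replicate alone and ranking by −log10 p.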

Additional observations from a re-analysis of the deposited data

How the results depend on the processing

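A 3 kb window, 500 bp of the gene added and either replicate alone only widen the rule, so all 2495 genes were kept by construction. All 3 genes described here also kept a promoter peak with 50% overlap of both peaks, like 89.6% of the 2495. They kept it in the merged list too, like 90.7%. The count moved from 3 to 1 with a 1 kb promoter, with peaks at or above the median fold enrichment, and with a −log10 q of at least 10, and the overlapping member peaks moved from 6 to 2 under the last 2 settings. The pathway count, 6 of 73 genes against 13.7% of all genes, moved with the setting. It was 3 of 73 with 1 kb, against 8.63%, and 19 of 73 with 500 bp of the gene added, against 27.5%. It was 1 of 73 with the median fold, against 5.75%, and 1 of 73 with the −log10 q minimum, against 5.54%. The gene kept was SUC4 with the median fold and FvH4_6g48160 with the −log10 q minimum, both among the 3 chosen genes. In replicate 2 alone the pathway count was 14 of 73, against 23.4%, and in replicate 1 alone 16 of 73, against 21.0%. The lists as first written, tried after seeing the data, also gave 6. With 3 kb the share of all genes moved to 16.7%, and the pathway count was 8 of 73. Stricter limits and shorter windows admit fewer peaks by construction. Without 1 replicate the mean fold ranged from 3.06 to 3.58 for SUC4, 2.75 to 2.84 for FvH4_2g40120 and 2.92 to 3.25 for FvH4_6g48160. Ranked by −log10 p, FvH4_2g40120 stood at the 39.5 percentile in replicate 1 and 35.6 in replicate 2, with the cause not tested. SUC4 then stood at 69.3 and 42.7, and FvH4_6g48160 at 57.7 and 81.8. No paired analysis was possible because the only group with more than 1 library is the IP group. Depth is unknown, so a peak absent from 1 list may have been missed there.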

Other observations

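Enzymes that split sucrose carried the 2 strongest overlapping peaks of the pathway by mean fold enrichment, FvH4_7g21580 and FvH4_1g09360. FvH4_1g09360 (sucrose synthase) had 4.27 in replicate 1 at 41 bp and 4.49 in replicate 2 at −4 bp. It missed the promoter count because the replicate 1 distance lay inside the gene, although the merged list put it at −33 bp. FvH4_7g21580 (neutral/alkaline invertase 3) had 4.78 and 4.01 in replicates 1 and 2, in the 5' UTR. FvH4_4g18710 (sucrose synthase 2) had 3.99 and 3.61, also in the 5' UTR. The others ranged from a mean of 2.50 at FvH4_6g33590, an insoluble beta-fructofuranosidase, to 3.78 at FvH4_7g16940, alkaline/neutral invertase F. Among them were FvH4_3g24390 (alkaline/neutral invertase E, 3.28 in replicate 1 and 3.52 in replicate 2, in the 3' UTR) and the CWINV1-like genes FvH4_6g33602 (2.34 and 3.19) and FvH4_6g33780 (3.09 and 2.98). Of 14 such genes with a peak, 11 had an overlapping one (78.6%), against 58.6% of all genes with a peak, and the difference was not tested.

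Some genes with the same description had peaks at like places and others did not. Both sucrose-phosphate synthase 1 genes had an overlapping peak in exon 3 of 13, at a merged distance of 999 bp for FvH4_1g02490 and 873 bp for FvH4_2g28820. Both alkaline/neutral invertase A genes had one in exon 1 of 6, at 731 bp for FvH4_4g20740 and 723 bp for FvH4_6g07880. By contrast, the strongest overlapping peaks of the monosaccharide-sensing protein 2 genes had merged distances of −977 bp for FvH4_1g10120 and −21467 bp for FvH4_5g25950. FvH4_5g25950 had 4 peaks in replicate 1, with a peak in intron 2 of 5 among them, and 3 in replicate 2. Its other peaks are not compared here. The CWINV1-like genes had merged distances of 27 bp for FvH4_6g33780, 353 bp for FvH4_6g33602 and 765 bp for FvH4_6g33590. These examples were noticed in the values, the likeness was not tested, and the placement of reads from similar copies was not tested.

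Among SWEET carriers, which move sugars without protons, the strongest overlapping peaks were those of FvH4_2g24900 (SWEET9-like, 4.14 in replicate 1 and 4.11 in replicate 2), FvH4_2g21990 (SWEET1-like, 4.23 and 2.89) and FvH4_2g14860 (SWEET1-like, 2.88 and 3.67). All 3 lay within the first part of the gene, at 75 to 315 bp in replicate 1. Of the other carriers, FvH4_5g25950 (monosaccharide-sensing protein 2) had 3.90 and 3.87, at −21528 bp in replicate 1, FvH4_3g04750 (polyol transporter 4) had 4.10 and 3.52 in the 5' UTR, and FvH4_6g05021 (ERD6-like 3) had 3.65 and 3.58 in intron 1 of 18.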
